A study of Mus musculus with 7 samples.

Results

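The genes described here are 10 genes of bone morphogenetic protein (BMP) and transforming growth factor beta (TGF-β) signaling. They are the ligand genes *Bmp2*, *Bmp4*, *Bmp7*, *Tgfb1* and *Tgfb2*, the inhibitory Smad genes *Smad6* and *Smad7*, and the target genes *Id1*, *Id2* and *Id3*. The genes were listed by name for their place in these pathways, by a rule that uses no measured value, although the list was drawn up with earlier results of these data known. All 10 were found among the 32285 genes of the count files, and all 10 passed the filter on low counts, which left 17155 genes for the comparison. RNA was sequenced from cultured utricles, vestibular organs that sense gravity and linear acceleration, of wild-type mice at postnatal day 2. Every explant had been damaged with 2 mM gentamicin for 24 h, an antibiotic that is toxic to hair cells, and was collected 5 days post-injury. The 4 Gent+Fos OE libraries came from explants that also received, for 48 h, an AAV-PHP.eB virus in which the CMV promoter, active in many cell types, drives mouse *Fos*. The 3 Gent libraries are labelled as gentamicin control with no virus named, but the deposited counts of this group bear names with letters that the study also uses for its shRNA. Whether the Gent explants carried no virus, a control virus or an shRNA against *Fos* is not settled by the sources used here, so each difference is one between libraries labelled Gent+Fos OE and Gent. Undamaged utricles were not analysed here.

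Each library was a pool of 12 utricles, so replicate error here is the spread between pools. Total counts per library ran from 27879889 to 34335214. *Fos* was higher in every library labelled Gent+Fos OE, at 154 ± 8.46 CPM (SD, n = 4) against 38.2 ± 3.18 CPM (SD, n = 3) in Gent, and the counts do not tell viral from endogenous *Fos* RNA. CPM are read counts scaled to a common library size after TMM normalization. Gent replicate 2 stood apart, with short genes relatively high: across genes, its deviation from the mean of all libraries had a Spearman's rho of -0.496 with gene length, against -0.221 to 0.325 in the other libraries, and its share of mitochondrial counts was 2.86% against 1.74% to 1.99%. Where leaving it out moved a value given here by more than 1.5 times, the value without it is given as well. Markers of hair cells and supporting cells were present in both groups. For example, *Myo7a* was at 84.3 to 108 CPM in Gent+Fos OE and 85.0 to 98.4 CPM in Gent, and *Sox2* at 90.2 to 110 and 79.2 to 109 CPM. The study stained the proteins of both genes in the cochlea as well, so they do not tell a utricle from a cochlea. Of the listed markers, the supporting cell gene *Hes5* and the hair cell gene *Ocm* were near 0, each under 0.48 CPM in all libraries.

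BMP and TGF-β ligands are secreted dimers that bring together type I and type II receptor kinases at the cell surface. BMP receptors phosphorylate Smad1, Smad5 and Smad9, and TGF-β receptors phosphorylate Smad2 and Smad3, and both sets of Smads then enter the nucleus with Smad4. *Id* genes are direct targets of BMP Smads and encode helix-loop-helix proteins without a DNA-binding region, which hold back basic helix-loop-helix factors such as Atoh1, the factor that starts hair cell differentiation. *Smad6* and *Smad7* are switched on by the pathways and inhibit them in return. TGF-β is also known as a regulator of matrix and of smooth muscle genes in mesenchyme.

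None of the 10 genes was called different between Gent+Fos OE and Gent. A call required an adjusted p under 0.01 from edgeR's quasi-likelihood test and a log2 fold change beyond 0.25 in either direction, limits that 71 genes passed, 0.414% of those tested. At an adjusted p under 0.05, which 1.86% of all tested genes passed together with the fold limit, there was still none of the 10. Under a looser rule, an unadjusted p under 0.05 beside that fold limit, 5 of the 10 were lower in Gent+Fos OE (*Bmp4*, *Tgfb1*, *Id3*, *Smad6* and *Id2*), where the background over all tested genes was 13.4%. Under the same rule 1 of the 10 was higher (*Smad7*), against a background of 11.1%. In all, 6 of the 10 had a log2 fold change below 0 and 4 above 0, with a median of -0.32, beside 49.9% of all tested genes above 0 and a median of -0.00. After a correction for gene length the median of the 10 was -0.18, with the same counts above and below 0. No test was made on the list. DESeq2 called 1 of the 10, *Bmp4*, as lower, with 3.17% of its genes called in either direction, and limma-voom called none. Because whole utricles were sequenced, a lower value can reflect fewer cells of a type or less RNA per cell, and these cannot be told apart.

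**Figure D1:**
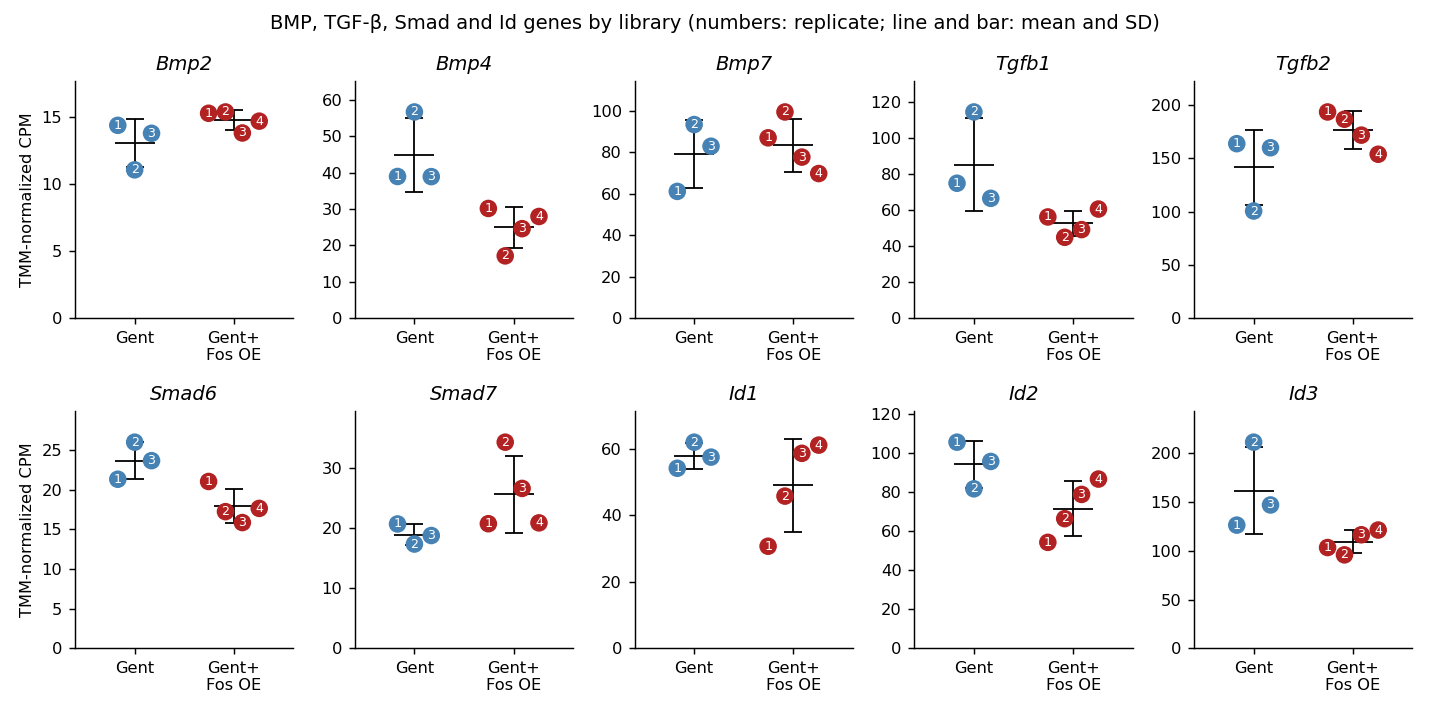
TMM-normalized CPM of each of the 10 genes in every library, with linear axes from 0, where each numbered point is the replicate of that number, and the line and bar are the mean and SD of 3 Gent and 4 Gent+Fos OE libraries. The Gent+Fos OE points of *Bmp4*, *Tgfb1*, *Id3* and *Smad6* all sit below the Gent points, those of *Smad7* all sit above them, and the groups overlap for *Bmp2*, *Bmp7*, *Tgfb2*, *Id1* and *Id2*.

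Among the ligands, *Bmp4* had the smallest p. *Bmp4* (ENSMUSG00000021835, mm10 chromosome 14, 46383520 to 46390669, minus strand) encodes a BMP ligand expressed around developing sensory patches of the inner ear. It was at 30.2, 17.1, 24.6 and 28.0 CPM in Gent+Fos OE replicates 1 to 4 and at 39.0, 56.7 and 38.9 CPM in Gent replicates 1 to 3. The groups did not overlap, with replicate 2 lowest in Gent+Fos OE and replicate 2 highest in Gent. The log2 fold change was -0.85 (standard error 0.21, 95% interval -1.30 to -0.39), with an adjusted p of 0.0667 from edgeR, and the exact two-sided permutation test gave p = 0.0286, the smallest value that 7 libraries in groups of 4 and 3 allow. DESeq2 gave -0.84 with an adjusted p of 0.00718, past the limit. Leaving out single libraries kept the log2 fold change between -0.95 and -0.65, the latter without Gent replicate 2, and edgeR's adjusted p between 0.0385 and 0.189. A correction for gene length, which takes the trend with length out of every library, gave -0.67. A share of 3.96% of its exonic bases overlaps *Gm15217*, and reads from there were left out of the counts.

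*Tgfb1* (ENSMUSG00000002603, mm10 chromosome 7, 25687002 to 25705077, plus strand) encodes the TGF-β ligand best known from immune and stromal cells. Its 4 Gent+Fos OE libraries were at 56.2, 44.9, 49.2 and 60.6 CPM, and its 3 Gent libraries at 74.9, 114 and 66.5 CPM. Every Gent+Fos OE library lay below every Gent library, and Gent replicate 2 was far above the other Gent libraries. The log2 fold change of *Tgfb1* was -0.69 (standard error 0.19, 95% interval -1.11 to -0.28, edgeR adjusted p = 0.0897, exact permutation p = 0.0286). Without Gent replicate 2 it was -0.43, more than 1.5 times smaller, and with the length trends removed it was -0.73. DESeq2 gave an adjusted p of 0.0217, short of the limit. Lower macrophage markers went with the lower *Tgfb1*. The summed level of 10 macrophage genes was 1036 to 1697 CPM in Gent+Fos OE and 1858 to 2281 CPM in Gent. Of these 10 macrophage genes, 9 had a log2 fold change below 0, and none was called by edgeR. Groups did not overlap for 7, all lower in Gent+Fos OE, where the share over all tested genes was 12.2%. At an unadjusted p under 0.05 beside the fold limit, 7 were lower, against 13.4% of all tested genes. *Csf1r*, the receptor that macrophages need to survive, was at 105 to 150 CPM against 175 to 258 CPM. *Mrc1*, the 1 macrophage marker above 0, was at 83.2 to 116 CPM against 46.5 to 121 CPM. The part of these cells in the *Tgfb1* values was not tested.

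The stretches of DNA just before the transcription starts of *Bmp4* and *Tgfb1* are shown because these ligand genes had the lowest p of the 10 and because Fos acts at promoters and enhancers through AP-1 sites. They are from RefSeq on GRCm38.p6, the assembly that mm10 names, and are written in lower case in the direction of transcription. The *Bmp4* stretch is chr14:46390670-46390919 on the minus strand, the 250 bases before the start. The *Tgfb1* stretch is chr7:25686752-25686961 on the plus strand, from 250 to 41 bases before the start.
Bmp4: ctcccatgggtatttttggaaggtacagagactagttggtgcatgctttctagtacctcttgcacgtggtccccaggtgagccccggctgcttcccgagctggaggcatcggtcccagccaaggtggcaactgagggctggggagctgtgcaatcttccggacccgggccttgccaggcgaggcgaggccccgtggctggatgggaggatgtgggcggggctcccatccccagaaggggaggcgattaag
Tgfb1: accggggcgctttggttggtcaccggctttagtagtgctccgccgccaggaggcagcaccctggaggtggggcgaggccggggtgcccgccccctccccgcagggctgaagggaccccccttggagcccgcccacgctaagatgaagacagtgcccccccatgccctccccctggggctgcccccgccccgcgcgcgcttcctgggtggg

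Promoter windows of 300 bases, from 250 before to 50 after the start, were held for 6 of the 10 genes (*Bmp4*, *Tgfb1*, *Tgfb2*, *Smad6*, *Id2* and *Id3*) and were searched for 4 motifs, each of which reads alike on both strands. The AP-1 motif TGANTCA was in none of the 6, and 7.81% of all 32851 promoter windows held it. The cyclic AMP response element TGACGTCA was also in none of the 6, with 1.79% of all windows. GGCGCC, a GC-rich motif that Smad proteins bind, was in the window of *Id2* alone among the 6 and in 11.9% of all windows. GTCTAGAC, the palindromic Smad motif, was in the window of *Smad6* alone among the 6 and in 0.213% of all windows. The matches are shown in capitals in 30 bases around each, at chr12:25096306-25096335 on the minus strand for *Id2* and at chr9:64022045-64022074 on the minus strand, across the start site, for *Smad6*. The *Id2* stretch lies within the span of the gene in the count files, which begins further upstream. No motif contains another, and a match describes the letters of a window, not binding.
Id2: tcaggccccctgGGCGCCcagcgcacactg
Smad6: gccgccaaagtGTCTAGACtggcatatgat

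The other ligand genes did not differ beyond their spread. *Tgfb2* (chromosome 1, 186622792 to 186705989), a TGF-β ligand needed for inner ear development, was at 193, 187, 172 and 154 CPM in Gent+Fos OE and 164, 100 and 160 CPM in Gent. Gent replicate 2 was low and the remaining Gent libraries fell inside the range of Gent+Fos OE. For *Tgfb2* the log2 fold change was 0.32 (standard error 0.18, 95% interval -0.07 to 0.71, edgeR adjusted p = 0.282), and without Gent replicate 2 it was 0.12. *Gm29491* overlaps 2.1% of its exonic bases. *Bmp2* (chromosome 2, 133552159 to 133562885), a BMP ligand close to *Bmp4* in sequence, ran from 13.8 to 15.4 CPM in Gent+Fos OE and from 11.1 to 14.4 CPM in Gent, with a log2 fold change of 0.18 (95% interval -0.15 to 0.50, edgeR adjusted p = 0.460), and 0.065 without Gent replicate 2. *Bmp7* (chromosome 2, 172868012 to 172940321), a ligand that pairs with Bmp2 or Bmp4 in mixed dimers, was at 86.9, 99.3, 77.6 and 69.7 CPM in Gent+Fos OE and 61.1, 93.2 and 82.8 CPM in Gent. Its groups overlapped over most of their range, and the log2 fold change was 0.08 (95% interval -0.30 to 0.46, edgeR adjusted p = 0.803). The direction of *Bmp7* turned to -0.079 without Gent replicate 1 and to -0.022 without Gent+Fos OE replicate 2.

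The inhibitory Smad genes had fold changes of opposite sign. *Smad6* (ENSMUSG00000036867, chromosome 9, 63953076 to 64022059), which mainly restrains BMP signaling, was at 21.0, 17.2, 15.9 and 17.6 CPM in Gent+Fos OE and 21.3, 26.0 and 23.7 CPM in Gent. The groups did not overlap, although Gent+Fos OE replicate 1 and Gent replicate 1 were nearly level. For *Smad6* the log2 fold change was -0.40 (standard error 0.14, 95% interval -0.72 to -0.08, edgeR adjusted p = 0.147, exact permutation p = 0.0571). *Smad7* (ENSMUSG00000025880, chromosome 18, 75367529 to 75395935), which restrains both pathways and is a well-known TGF-β target, was at 20.7, 34.2, 26.5 and 20.8 CPM in Gent+Fos OE and 20.6, 17.3 and 18.7 CPM in Gent. All Gent+Fos OE libraries lay above all Gent libraries, but replicates 1 and 4 were level with Gent replicate 1. For *Smad7* it was 0.44 (standard error 0.19, 95% interval 0.02 to 0.86, edgeR adjusted p = 0.193, exact permutation p = 0.114). Without Gent+Fos OE replicate 2, the highest library, it was 0.26. Over all tested genes, groups did not overlap for 12.2% in the lower direction and 11.3% in the higher direction, and of the 10 genes 4 (*Bmp4*, *Tgfb1*, *Id3*, *Smad6*) and 1 (*Smad7*) did so.

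*Id1*, *Id2* and *Id3* had log2 fold changes below 0, of unequal size. *Id3* (ENSMUSG00000007872, chromosome 4, 136143497 to 136145755) was at 103, 95.7, 116 and 121 CPM in Gent+Fos OE and 126, 211 and 147 CPM in Gent. The groups did not overlap, and Gent replicate 2 was well above the other libraries. The log2 fold change of *Id3* was -0.56 (standard error 0.18, 95% interval -0.95 to -0.17, edgeR adjusted p = 0.115, exact permutation p = 0.0286). Without Gent replicate 2 it was -0.33, and with the length trends removed it was -0.35. *Id2* (ENSMUSG00000020644, chromosome 12, 25093799 to 25097140) was at 54.3, 66.4, 78.9 and 86.7 CPM in Gent+Fos OE and 106, 81.7 and 95.7 CPM in Gent. Here Gent replicate 2 was the lowest Gent library and Gent+Fos OE replicate 4 lay above it, so the groups overlapped. For *Id2* the log2 fold change was -0.40 (standard error 0.17, 95% interval -0.77 to -0.02, edgeR adjusted p = 0.187, exact permutation p = 0.114), and -0.28 with the length trends removed. *Id1* (ENSMUSG00000042745, chromosome 2, 152736251 to 152737410), of the 3 *Id* genes the one most often used as a readout of BMP signaling, was at 30.7, 45.8, 58.6 and 61.1 CPM in Gent+Fos OE and 54.1, 62.0 and 57.5 CPM in Gent. The spread of *Id1* within Gent+Fos OE, with replicate 1 at the bottom, was wider than the difference between the groups. Its log2 fold change was -0.24 (standard error 0.21, 95% interval -0.70 to 0.22, edgeR adjusted p = 0.489). It was -0.075 without Gent+Fos OE replicate 1, -0.37 without Gent+Fos OE replicate 4 and -0.08 with the length trends removed.

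**Figure D2:**
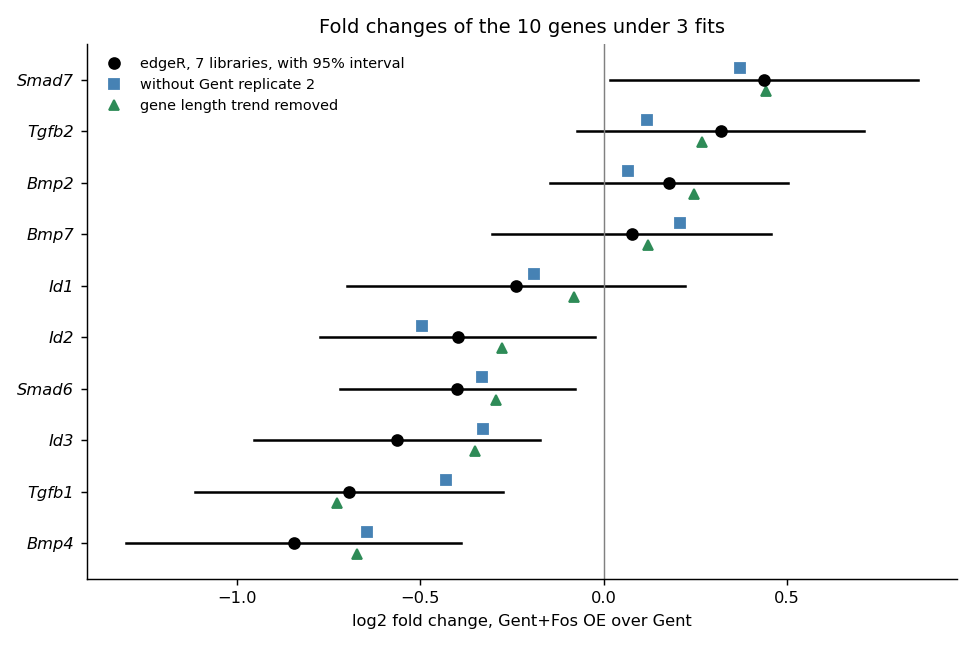
Log2 fold change of Gent+Fos OE over Gent for each of the 10 genes, from edgeR on 7 libraries (black point, line: 95% interval), without Gent replicate 2 (blue square) and after the gene length correction (green triangle). The intervals of *Bmp4*, *Tgfb1*, *Id3*, *Smad6* and *Id2* lie below 0 and that of *Smad7* above 0, the intervals are not adjusted for the number of genes tested, and each gene keeps its sign under these 3 fits.

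Per gene length, the *Id* genes were the most abundant of the 10 in Gent. On the RPKM scale, which divides CPM by the exonic length in kilobases, the Gent means ran from 90.0 ± 24.7 (SD, n = 3) for *Id3*, 49.9 ± 3.39 for *Id1* and 38.7 ± 4.92 for *Id2* through the ligands to 3.68 ± 0.498 for *Bmp2*. The libraries of neighbouring *Id* genes did not overlap in this order. *Tgfb2*, *Bmp4*, *Bmp7* and *Tgfb1* followed at means of 24.4, 20.0, 19.7 and 16.9 RPKM, and none of these neighbours differed from the next beyond the spread. *Smad6* stood below them at 7.38 ± 0.729 RPKM, and the lowest pair, *Smad7* at 4.18 ± 0.370 and *Bmp2*, overlapped.

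In Gent+Fos OE the order per length began with *Id3* at 60.9 ± 6.52 RPKM (SD, n = 4) and ended again with *Bmp2* at 4.16 ± 0.202 RPKM. *Id1*, *Tgfb2*, *Id2* and *Bmp7* followed *Id3* at 42.3, 30.4, 29.4 and 20.7 RPKM, and each overlapped the next. *Bmp4* and *Tgfb1* stood together at 11.1 ± 2.54 and 10.5 ± 1.39 RPKM, below all libraries of *Bmp7*. *Smad7* at 5.65 RPKM and *Smad6* at 5.60 RPKM overlapped. Counts behind these levels were 345 to 6579 reads per gene and library.

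**Figure D3:**
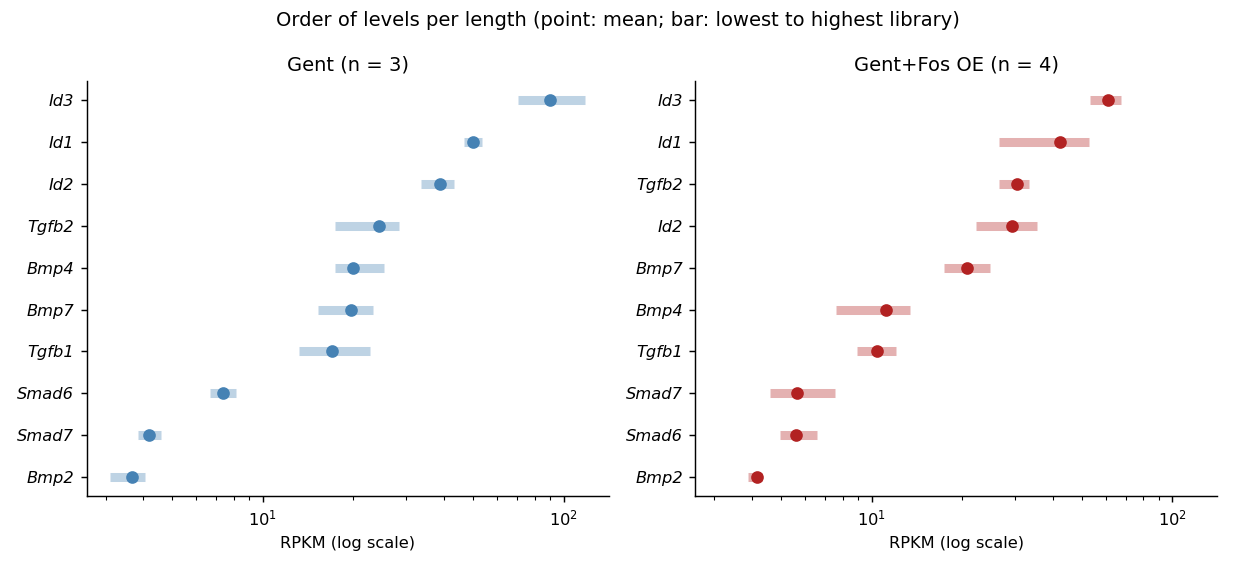
Levels of the 10 genes per exonic length (RPKM, log axis) in Gent (left, n = 3) and Gent+Fos OE (right, n = 4), ordered by mean; points are means and bars run from the lowest to the highest library. *Id3* is first in both groups, at 90.0 and 60.9 RPKM, and *Bmp4* overlaps *Bmp7* in Gent but lies below it in Gent+Fos OE.

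A wider list of 107 BMP and TGF-β pathway genes, ordered by role, gives the setting of these 10. Of the 107, 94 were tested, and none was called by edgeR. Under the looser rule of unadjusted p, 12 were higher and 12 lower, near the backgrounds given above. DESeq2 called 4, of which 2 were higher, *Bmp8a* among them, and 2 lower (*Acta2* and *Angptl4*). The median log2 fold change over the 94 was 0.13, and 55 of the 94 were above 0. The median was 0.058 without Gent replicate 2 and 0.073 with the length trends removed.

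Among 17 other ligand genes tested, 9 had a log2 fold change above 0 and 8 below, with a median of 0.13. *Bmp8a*, a BMP ligand known from the germ line, had 13, 8, 29 and 11 counts in the Gent+Fos OE libraries and 0 counts in each Gent library. Over the groups it was at least 15.7-fold higher in Gent+Fos OE when Gent is set at the floor of 3 counts over the group. *Bmp8a* passed the filter on low counts only through the group where it is high, and it is not tested when 10 counts are required in every library, so its p and its calls are not used as support. Its level stayed under 1 CPM, and reads shared with its close paralog *Bmp8b* were left out of the counts, so its value is uncertain. *Inhba*, the subunit of activin A, was at 58.2 ± 12.5 CPM (SD, n = 4) against 30.8 ± 11.9 CPM (SD, n = 3). The test gave *Inhba* a log2 fold change of 0.92 with a standard error of 0.26 (edgeR adjusted p = 0.0982). *Tgfb3*, the remaining TGF-β ligand, had -0.44 (standard error 0.12, edgeR adjusted p = 0.0897), with 7.6% of its exonic bases shared with another gene.

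Receptor and co-receptor genes had 13 of 15 tested members above 0, with a median log2 fold change of 0.30, which was 0.13 without Gent replicate 2. Their median exonic length was 5962 bases, against 4084 over all tested genes, and with the length trends removed the median was 0.21. *Acvr2b*, a type II activin receptor, was at 3.53 ± 1.20 CPM in Gent+Fos OE and 1.88 ± 0.538 CPM in Gent (log2 fold change 0.91, edgeR adjusted p = 0.149). *Rgmb*, a BMP co-receptor, had 0.48 (edgeR adjusted p = 0.123), and *Acvrl1*, a type I receptor of endothelium, had -0.48 (edgeR adjusted p = 0.194). Endothelial markers did not move one way: of 8 tested, 3 were above 0 and 5 below, with none called by edgeR. At an unadjusted p under 0.05 beside the fold limit, 1 was higher, where the share over all tested genes was 11.1%. That gene was *Cdh5*, at 11.1 to 18.5 CPM in Gent+Fos OE and 7.45 to 10.7 CPM in Gent, while *Emcn* was at 88.2 to 129 and 100 to 176 CPM, *Pecam1* at 0.337 to 1.51 CPM over all libraries and *Cldn5* at or below 0.488 CPM. The summed level of the 9 markers was 133 to 180 CPM in Gent+Fos OE and 145 to 210 CPM in Gent.

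Extracellular inhibitors and binding proteins were spread about 0, with 14 of 24 tested genes above 0 and a median of 0.02, which was 0.12 without Gent replicate 2 and -0.05 with the length trends removed. *Ltbp1*, which tethers latent TGF-β to the matrix, was at 331 ± 40.6 against 224 ± 59.3 CPM, and *Twsg1*, a BMP-binding protein, at 551 ± 19.5 against 392 ± 107 CPM. Their log2 fold changes were 0.56 and 0.49, with edgeR adjusted p of 0.130 and 0.149, and were 0.35 and 0.27 without Gent replicate 2, the lowest library of both genes. *Dcn*, a matrix proteoglycan that binds TGF-β, had -0.56 (edgeR adjusted p = 0.140). Receptor-regulated Smads and other intracellular regulators had 12 of 16 genes above 0 and a median of 0.20, which was 0.08 without Gent replicate 2 and 0.11 with the length trends removed. *Smad3*, the Smad of TGF-β receptors, was at 143 ± 11.3 against 112 ± 19.0 CPM (log2 fold change 0.35, edgeR adjusted p = 0.175), and the fold change was 0.22 without Gent replicate 2. *Zfyve9*, which brings Smads to the receptors, had 0.29 (edgeR adjusted p = 0.173, 10.9% of its exonic bases overlap another gene), and the ubiquitin ligase gene *Smurf1* had 0.26 (edgeR adjusted p = 0.234).

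The 22 other target genes leaned to lower values, with 15 below 0 and a median of -0.25, which was -0.13 without Gent replicate 2. *Acta2*, the smooth muscle actin gene that TGF-β raises in mesenchymal cells, was at 262, 130, 172 and 170 CPM in Gent+Fos OE and 500, 587 and 321 CPM in Gent. All Gent+Fos OE libraries were below all Gent libraries, with a log2 fold change of -1.35 (standard error 0.25, edgeR adjusted p = 0.0250, DESeq2 adjusted p = 2.2e-05). *Angptl4*, a secreted lipase inhibitor that TGF-β raises, was at 3.67 ± 0.950 against 8.19 ± 2.40 CPM (log2 fold change -1.16, edgeR adjusted p = 0.0571, DESeq2 adjusted p = 0.00332). The summed level of 9 mesenchyme markers overlapped between the groups, at 8293 to 12975 CPM in Gent+Fos OE and 10600 to 13572 CPM in Gent. Of the 9, 6 had a log2 fold change above 0 and 3 below, with none called by edgeR. By unadjusted p 1 was lower (*Lum*), where the share over all tested genes was 13.4%. The groups did not overlap for 1, *Twist1*, also lower, where that share was 12.2%. The part of these cells in the *Acta2* values was not tested.

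**Figure D4:**
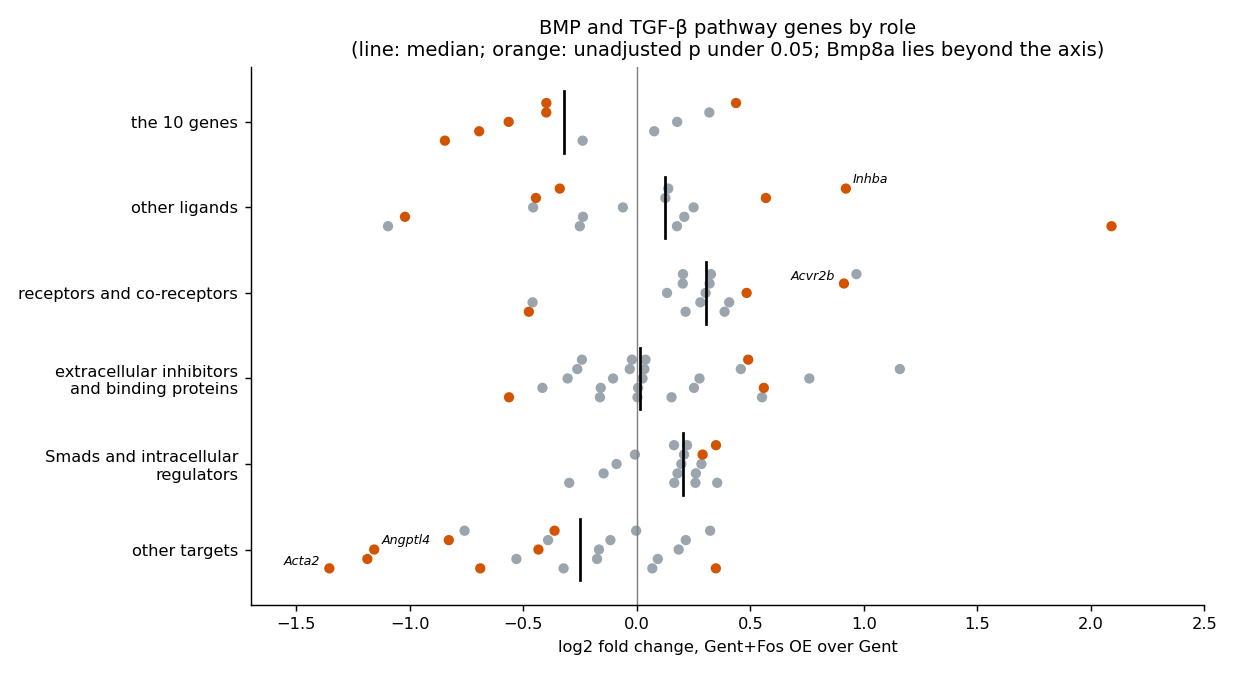
Log2 fold change of Gent+Fos OE over Gent for the 10 genes and for the other tested BMP and TGF-β pathway genes, 1 row per role; each point is a gene, orange marks an unadjusted p under 0.05, and the black line is the median of the row (*Bmp8a*, at 0 in Gent, lies beyond the axis, and 1 other target is counted in its median but not drawn). The medians run from -0.32 for the 10 genes and -0.25 for other targets to 0.30 for receptors, and the named points include *Inhba* at 0.92 and *Acta2* at -1.35.

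Levels of several marker lists differed between the groups beside these genes. Of 6 melanocyte markers, 6 had a log2 fold change below 0, with summed levels of 45.7 to 50.9 against 87.6 to 124 CPM. Of the 6, 5 had an unadjusted p under 0.05, against 13.4% of all tested genes in this direction. By edgeR 2 were called (*Dct* and *Tyrp1*), against 0.414% of all tested genes in either direction. Of 8 supporting cell markers tested, 7 had a log2 fold change above 0, 4 of them with an unadjusted p under 0.05. In this direction 11.1% of all tested genes passed that rule. The groups did not overlap for 2 of the 8, against 11.3% of all tested genes. By edgeR 1 was called (*Otog*, a gene of the extracellular membranes over the epithelium). Summed levels were 2156 to 2974 against 1463 to 1867 CPM, with *Otog* alone at 830 to 1354 against 431 to 466 CPM. *Sox2*, *Lfng* and *Slc1a3* had log2 fold changes of 0.08, -0.07 and 0.01. Hair cell markers summed to 748 to 935 against 645 to 808 CPM, glial markers to 471 to 587 against 402 to 672 CPM, and neuronal markers to 46.3 to 68.4 against 35.7 to 50.5 CPM, each with overlap between the groups. The part of these cell types in the values of the 10 genes was not tested.

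Over the 7 libraries, the genes whose log2 CPM tracked *Bmp4* most closely among 17154 compared were *Reep5*, *Rapsn* and *Emilin1*, with Pearson correlations of 0.992, 0.990 and 0.990. These correlations hold the difference between the groups within them and are given as a description. *Emilin1*, a gene of the elastic matrix, was at 161 ± 27.7 CPM in Gent+Fos OE and 255 ± 32.1 CPM in Gent (log2 fold change -0.66, edgeR adjusted p = 0.0656). *Rapsn* and *Reep5* had log2 fold changes of -0.84 and -0.17 (edgeR adjusted p = 0.134 and 0.360).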

How the data were processed

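RNA-seq libraries of gentamicin-damaged utricles labelled Gent+Fos OE (n = 4) or Gent (n = 3) were analysed as grouped by the sample labels. The methods of the study state 3 replicates per condition, and all 7 libraries were used. The authors deposited raw read counts per gene, made with featureCounts 2.0.6 on an mm10 annotation per the file headers: both reads of a pair counted singly, strand not used, reads on several places or genes left out. The submitters' processing notes also name Trim Galore 0.6.10, HISAT2 2.2.1 and DESeq2 1.34.0; the study's methods name mm39, so coordinates follow the files. Symbols came from GENCODE vM39 and RefSeq.

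Genes kept by filterByExpr (17155) were normalized by TMM and compared with edgeR 4.0.16 (quasi-likelihood F-test, R 4.3.3), Benjamini-Hochberg adjusted over all tested genes, with limits of 0.01 for adjusted p and 0.25 for log2 fold change. Single genes had a two-sided exact permutation test of mean log2 CPM over 35 splits. Likeness used log2 CPM with a prior count of 2. Alternatives were DESeq2 1.42.0 on genes with at least 10 counts in total, limma-voom (limma 3.58.1), RLE and upper quartile scaling, other filters, a replicate block, a correction for gene length by loess with a span of 0.3, an adjusted p limit of 0.05 and leaving out each library. Scripts ran under Python 3.11.15 with scipy 1.17.1, and the fits were tested on simulated data. The 10 genes and all lists were chosen with earlier results of these data known. Named besides the 10 genes were *Fos*, the 3 lowest p per role list and the 3 genes most like *Bmp4*; genes named for their calls by DESeq2 fall within these, and marker genes were named as examples after their values were seen. The 107-gene list has 13 untested genes, of which 1 was not matched in the files by symbol. The result of 1 gene that the naming rule takes is not reported here.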

Additional observations from a re-analysis of the deposited data

Results flagged for a closer look

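*Fos* in Gent+Fos OE replicate 3, reached 166.978 CPM where the remaining 3 Gent+Fos OE libraries had 149 to 151 CPM. This gap was 0.873 of the range of the group, which marks the library as far from the others. Chance gives such a gap to about 1 in 20 groups. None of the 10 BMP, TGF-β, Smad and Id genes had a library this far from the other 3 in Gent+Fos OE; groups of 3 were not examined in this way.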

How the results depend on the processing

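Of 160 log2 fold changes of the 10 genes under alternative settings, 157 kept their direction and their side of the limits. The exceptions were *Bmp4*, which DESeq2 called (log2 fold change -0.84), and *Bmp7*, which turned to -0.022 without Gent+Fos OE replicate 2 and to -0.079 without Gent replicate 1, within a range of -0.079 to 0.21 (without Gent replicate 2). None of the 10 was called in the 7 fits that left out a library, nor under limma-voom, RLE or upper quartile scaling, the other filters, the length correction or an adjusted p under 0.05 (edgeR, 4 to 6 of the 10 at an unadjusted p under 0.05), and DESeq2 called 1. Between 3 and 4 of the 10 had a positive fold change in each setting.

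Counts over all genes moved more. Against 71 called genes, DESeq2 called 600, edgeR without a filter 204, with the length trends removed 112 and at an adjusted p under 0.05 319, while leaving out single libraries gave 5 (without Gent+Fos OE replicate 3) to 138 (without Gent replicate 2). Of the wider pathway, DESeq2 called 4, limma-voom 1 (*Bmp8a*, at 0 in all Gent libraries), edgeR without a filter 2 (*Acta2* among them) and the limit of 0.05 gave 3, against 0 in edgeR at 0.01. Of 236 values of the 15 named pathway genes, 229 kept direction and side and 7, in 4 genes, passed the limits. The cause of these moves was not tested.

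Replicate numbers did not pair the libraries: same-numbered libraries had correlations of their deviations of 0.064, -0.038 and 0.032, and not every library correlated best with its own number. A replicate block, in which Gent+Fos OE replicate 4 has no partner and adds nothing to the group difference, left 0 genes called by edgeR (3400 at an unadjusted p under 0.05, 4 of them among the 10), and 49 with the length trends removed as well. Each of the 10 genes had at least 345 reads in every library.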

Other observations

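Ratios within a library do not depend on its scaling, and 4 pairs among the 10 genes were taken after their values were seen, as a description. The ratios can still carry a library's trend with gene length, which was not removed here. *Bmp7* has 4019 exonic bases and *Bmp4* 2248. Per length, *Bmp7* over *Bmp4* was 1.61, 3.24, 1.76 and 1.39 in Gent+Fos OE replicates 1 to 4 and 0.876, 0.919 and 1.19 in Gent replicates 1 to 3, so *Bmp7* was above *Bmp4* in all Gent+Fos OE libraries and level with it in Gent. *Tgfb2* over *Tgfb1* was 2.21 to 3.62 for the Gent+Fos OE libraries and 0.765 to 2.09 for the Gent libraries, with Gent replicate 2 lowest. *Smad7* over *Smad6* was 0.697 to 1.41 against 0.472 to 0.686, nearly touching. *Id3* over *Id1* overlapped, with means of 1.52 and 1.79.

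Further TGF-β and BMP targets outside the naming rule, picked after their values were seen, also had an unadjusted p under 0.05 without being called. *Snai2*, a factor of epithelial to mesenchymal transition, had a log2 fold change of -0.83 (edgeR adjusted p = 0.0745), *Tagln*, a smooth muscle gene like *Acta2*, -1.19 (edgeR adjusted p = 0.141), and the matrix gene *Tgfbi* -0.43 (edgeR adjusted p = 0.109). *Id4*, the remaining *Id* gene, had the opposite sign to *Id1*, *Id2* and *Id3*, at 0.35 (edgeR adjusted p = 0.164), and whether it differs from them was not tested. The ligand gene *Gdf2* and the inhibitor genes *Sost* and *Lefty2* had no counts in any library.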
